A study of Mus musculus with 8 samples.

Results

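The Wnt genes described here are the ligands, receptors, secreted inhibitors, R-spondins and feedback genes of the Wnt pathway, measured on expression arrays in club cell preparations from mouse lung. The mice were Atgl KO/cTg or wt/cTg. The genes were chosen by symbol: the Wnt, Fzd, Sfrp, Dkk and Rspo families, Lrp5, Lrp6, Axin1, Axin2, Lgr4, Lgr5, Lgr6, Znrf3, Rnf43 and Wif1. All 51 genes that match had a probe set with 1 annotated symbol, out of 22180 genes on the array. Of the 51, 30 had a mean log2 signal above 5.18, the median of all probe sets, and were tested among 13112 such genes, while the other 21 lay below that level.

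Club cells are secretory cells of the airway lining. Atgl, now named Pnpla2, encodes the lipase that opens triglyceride breakdown, and the labels describe the first group as club cells without it and the second as club cells with it. The labels do not expand cTg, which both groups carry. In work on Atgl-deficient mice the name cTg is used for a transgene that restores Atgl in heart muscle, and whether the probes of Pnpla2 could read it was not tested. Each group had 4 arrays, each from a pool of 3 or 4 mice (16 mice without Atgl and 14 with it), and the mice were 38 to 48 weeks old. A replicate is thus a pool, numbered in sample order, and the numbers pair nothing across the genotypes. The question put by the design is which transcripts differ between the genotypes.

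Wnt proteins are lipid-modified secreted signals. They bind Frizzled receptors together with Lrp5 or Lrp6, which stops the Axin-based complex from degrading beta-catenin, and beta-catenin then acts with TCF/LEF factors on target genes. Znrf3 and Rnf43 remove Frizzled receptors from the cell surface, and R-spondins, through Lgr4, Lgr5 and Lgr6, take Znrf3 and Rnf43 away. Axin2, Znrf3 and Rnf43 are themselves target genes, so they are widely read as a sign of pathway activity. In the lung the pathway is known for its part in the upkeep of alveolar type 2 cells and in signals between mesenchyme and epithelium.

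Pnpla2 checked the labels, with a mean log2 signal of 6.98 ± 0.20 in Atgl KO/cTg against 8.70 ± 0.11 in wt/cTg (SD, n = 4). The difference was -1.72 (95% interval -1.97 to -1.47, limma adjusted p = 0.000116), in groups that did not overlap. Club cell genes were read at high signal in both groups, with Scgb1a1 at 12.92 and 12.99 and Cyp2f2 at 12.63 and 12.57. Of 11 tested club cell markers 8 had a difference above 0 and 3 below (median 0.16), and none passed the threshold. At an unadjusted limma p under 0.05, 5 were higher and 0 lower, where 3.39% of all genes were higher and 4.56% lower. Their summed levels overlapped, at 15.24 to 15.35 in Atgl KO/cTg and 15.16 to 15.26 in wt/cTg on the log2 scale. Markers of other cells were above the level filter too: Ptprc of leukocytes at 10.41 and 10.52, Pecam1 of endothelium at 9.19 and 9.46, and Col1a2 of fibroblasts at 10.06 and 10.42. The transcripts of Wnt genes therefore cannot be assigned to club cells, and fewer cells of a type cannot be told apart from less RNA per cell. Of 16 fibroblast markers 14 had a difference below 0 (median -0.33) and none passed the threshold, with overlapping summed levels of 13.59 to 13.94 in Atgl KO/cTg and 13.84 to 14.24 in wt/cTg on the log2 scale. Of these 16, 0 were higher and 5 lower at an unadjusted limma p under 0.05 (3.39% and 4.56% of all genes). The 14 alveolar type 2 markers all had a difference below 0 (median -0.63), with summed levels of 14.48 to 14.66 and 14.80 to 15.23. Of these markers 6 passed, where 0.0839% of all genes (11 of 13112) were lower and passed. Pool 2 of Atgl KO/cTg and pool 4 of wt/cTg were the outer arrays on principal component 1. The latter also stood apart in a score of sex-linked transcripts, at -3.24 where the other arrays ran from 3.15 to 5.23.

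None of the 30 tested Wnt genes passed the threshold of an adjusted p of 0.05 in limma, where 0.0991% of all genes did (13 of 13112, with 0.0153% higher and 0.0839% lower in Atgl KO/cTg). At an unadjusted p under 0.05 there was 1 Wnt gene, Wif1, against 7.95% of all genes. Groups that did not overlap were found for 2 of the 30, Wif1 and Fzd1, against 4.35% of all genes. The 30 differences were spread evenly around 0, with 15 above and 15 below and a median of -0.02, where 52.2% of all genes lay below 0 with a median of -0.007. The differences ran from -0.22 for Fzd1 to 0.32 for Wif1. By rounded differences, the sign turned in at least 1 of 19 alternatives for 13 of the 30, all with a difference of at most 0.13 in size. Wnt4, Wnt6, Wnt9a, Wnt10a, Dkk3, Fzd4 and Lgr6 were among them. Lgr4, at -0.000 without pool 4 of Atgl KO/cTg, is not counted there. In 24 of the 30 the difference was smaller than the spread between pools of 1 genotype (the pooled SD), as it was for 74.7% of all genes. The 95% intervals, each for 1 gene and not corrected for their number, ran from -0.58 at the lowest to 0.62 at the highest, so no interval reached a log2 change of 1 in either direction. Over all 51, without the level filter, again none passed the adjusted threshold (0.0316% of all genes), Wif1 alone had an unadjusted p under 0.05 (6.66%) and Wif1 and Fzd1 alone did not overlap (3.82%). The 21 Wnt genes below the filter had differences of -0.23 to 0.16, 9 above 0 and 12 below.

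**Figure D1:**
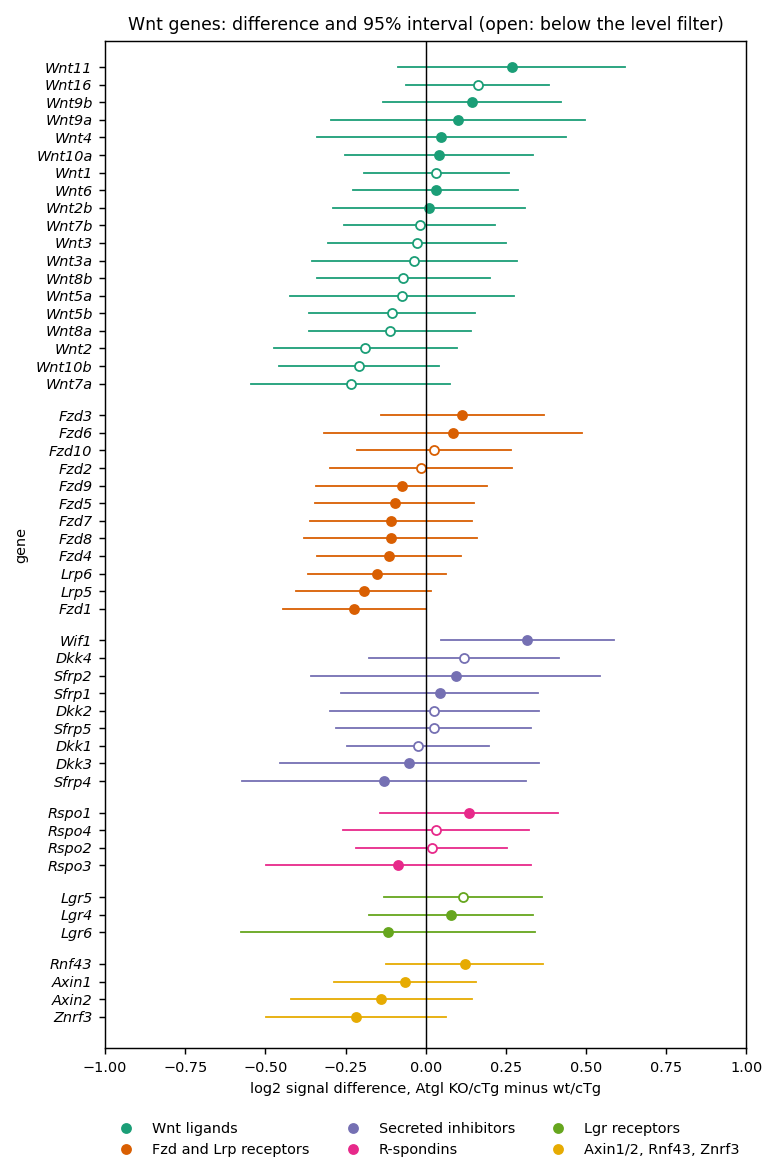
Difference in log2 signal (Atgl KO/cTg minus wt/cTg, horizontal axis) of the 51 Wnt genes, grouped by role, with the 95% interval of each gene's difference as a line. Filled points are the 30 genes above the level filter and open points the 21 below it; of the filled points only the interval of Wif1 lies wholly on 1 side of 0, and no interval reaches 1 or -1.

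The promoter sequence is shown for Wif1 and Fzd1, whose groups did not overlap, and for Wnt11, the ligand with the largest difference among the tested ligands. The 3 sequences are RefSeq windows of GRCm38.p6, each the 250 bases before a listed transcript start, cut for Wnt11 to the 222 bases before the first base of the gene. The windows were searched for the TCF/LEF motif as CTTTGAT or CTTTGAA on both strands. Capitals mark a match.
Wif1 (chr10:121033754-121034003, plus strand): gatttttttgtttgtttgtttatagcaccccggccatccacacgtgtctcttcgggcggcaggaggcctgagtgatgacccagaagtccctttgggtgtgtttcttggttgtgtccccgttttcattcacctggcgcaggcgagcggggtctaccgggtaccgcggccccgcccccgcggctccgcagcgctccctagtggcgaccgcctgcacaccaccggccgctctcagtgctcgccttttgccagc
Fzd1 (chr5:4758217-4758466, minus strand): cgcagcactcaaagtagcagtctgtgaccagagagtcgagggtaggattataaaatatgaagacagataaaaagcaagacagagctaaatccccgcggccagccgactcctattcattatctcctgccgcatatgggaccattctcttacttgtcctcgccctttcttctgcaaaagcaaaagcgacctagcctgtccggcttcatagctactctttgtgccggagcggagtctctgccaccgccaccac
Wnt11 (chr7:98834862-98835083, plus strand): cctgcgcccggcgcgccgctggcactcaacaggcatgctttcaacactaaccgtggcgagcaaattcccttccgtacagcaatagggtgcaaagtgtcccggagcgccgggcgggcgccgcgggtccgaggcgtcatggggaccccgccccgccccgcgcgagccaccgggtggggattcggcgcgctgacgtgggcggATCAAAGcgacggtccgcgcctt
Neither Wif1 nor Fzd1 had a match in this window. Wnt11 had 1, CTTTGAT on the opposite strand, that begins 23 bases before the gene and 51 bases before the listed transcript start, and its window at the other listed start had none. Windows were listed for 32 of the 51 Wnt genes, and 3 of these genes (Dkk1, Wnt11 and Wnt5b) had a match in 1 of their windows. That made 3 of 36 windows, or 8.33%, where 7.48% of all 32851 windows held 1. Axin2, a known TCF/LEF target, had no match either, which says only that these letters are not in its window.

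The ligands were mostly read at low signal. Of 19 Wnt ligands 12 lay below the level filter, and the gene means ran from 3.34 to 6.86. All 7 tested ligands had a difference above 0 (median 0.05), but none passed and the count was 6 of 7 after median centring and 5 of 7 with array weights or without pool 2 or pool 4 of Atgl KO/cTg. Of the 12 ligands below the filter 2 lay above 0 and 10 below.

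Wnt11, a ligand known mainly for signalling without beta-catenin, read 6.24, 6.86, 6.07 and 6.60 in the Atgl KO/cTg pools and 6.10, 6.21, 6.13 and 6.26 in the wt/cTg pools. Only pools 2 and 4 of Atgl KO/cTg stood above the wt/cTg range, and the difference was 0.27 (95% interval -0.09 to 0.62, limma adjusted p = 0.733). It was 0.13 without pool 2 of Atgl KO/cTg and 0.39 without pool 3 of Atgl KO/cTg, with limma adjusted p of 0.982 and 0.568. Wnt9b, a ligand known from kidney development, read 5.34, 5.52, 5.38 and 5.16 in the Atgl KO/cTg pools and 4.95, 5.33, 5.25 and 5.30 in the wt/cTg pools, with a difference of 0.14 (95% interval -0.13 to 0.42, limma adjusted p = 0.822). The groups of Wnt9b overlapped, and pool 1 of wt/cTg was the lowest of the 8 pools.

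Wnt4, which acts in lung and kidney development, read 5.62, 6.47, 6.25 and 6.29 in the Atgl KO/cTg pools and 6.10, 5.99, 5.99 and 6.37 in the wt/cTg pools. Its lowest and its highest pool were both Atgl KO/cTg, and the difference was 0.05 (95% interval -0.34 to 0.44, limma adjusted p = 0.975). Wnt2b, which acts in specifying the lung from the foregut, read 6.81, 6.99, 6.51 and 7.13 in the Atgl KO/cTg pools and 6.92, 6.70, 6.96 and 6.82 in the wt/cTg pools, with a difference of 0.01 (95% interval -0.29 to 0.31, limma adjusted p = 0.993). Its sign turned in 6 of 19 alternatives, median centring among them. The remaining tested ligands, Wnt6, Wnt9a and Wnt10a, had differences of 0.03, 0.10 and 0.04 and also overlapped.

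Wnt2, a fibroblast ligand of the lung, lay below the filter and read 4.87, 4.71, 4.73 and 4.50 in the Atgl KO/cTg pools and 5.12, 4.94, 4.83 and 4.67 in the wt/cTg pools. The groups overlapped and the difference was -0.19 (95% interval -0.47 to 0.10, limma adjusted p = 0.838 without the level filter). The summed fibroblast marker level was 13.59 to 13.94 and 13.84 to 14.24 in the 2 groups. That level was highest in pool 4 of each genotype, the pool in which Wnt2 was lowest. The part of fibroblasts in the value of Wnt2 was not tested. Wnt5a, another mesenchymal ligand of the lung, read 4.63, 4.73, 4.80 and 4.77 in the Atgl KO/cTg pools and 5.09, 4.96, 4.31 and 4.87 in the wt/cTg pools, with a difference of -0.07 (95% interval -0.42 to 0.27, limma adjusted p = 0.954 without the level filter). The Atgl KO/cTg pools of Wnt5a lay inside the range of the wt/cTg pools.

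Wnt7b, the ligand of developing lung epithelium, read 4.67, 4.92, 4.90 and 4.75 in the Atgl KO/cTg pools and 4.93, 4.77, 4.79 and 4.82 in the wt/cTg pools. Its difference was -0.02 (95% interval -0.26 to 0.22, limma adjusted p = 0.987 without the level filter), and the groups overlapped, with pool 1 of Atgl KO/cTg the lowest. Wnt3a, the ligand most used to switch on beta-catenin in culture, read 3.96, 4.47, 3.90 and 3.79 in the Atgl KO/cTg pools and 4.07, 3.99, 4.21 and 4.00 in the wt/cTg pools, with a difference of -0.04 (95% interval -0.36 to 0.29, limma adjusted p = 0.982 without the level filter). Pool 2 of Atgl KO/cTg was the highest of the 8 pools and the other Atgl KO/cTg pools were the lowest.

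Wnt7a, a ligand close in sequence to Wnt7b, read 4.67, 4.93, 5.34 and 4.90 in the Atgl KO/cTg pools and 5.23, 5.13, 5.14 and 5.26 in the wt/cTg pools. Of the Atgl KO/cTg pools 3 lay below the wt/cTg range and pool 3 above it, and the difference was -0.23 (95% interval -0.54 to 0.08, limma adjusted p = 0.806 without the level filter). Wnt10b, a ligand known for restraining fat cell formation, read 4.61, 4.41, 4.68 and 4.82 in the Atgl KO/cTg pools and 4.80, 4.89, 4.80 and 4.86 in the wt/cTg pools. Its pool 4 of Atgl KO/cTg was inside the wt/cTg range and the other 3 below it, with a difference of -0.21 (95% interval -0.46 to 0.04, limma adjusted p = 0.778 without the level filter). Wnt16, a ligand known from bone, had the opposite direction, with 3.97, 3.91, 3.94 and 3.79 in the Atgl KO/cTg pools and 3.61, 3.73, 3.71 and 3.90 in the wt/cTg pools and a difference of 0.16 (95% interval -0.06 to 0.39, limma adjusted p = 0.821 without the level filter). Only pool 4 of Atgl KO/cTg lay within the wt/cTg range. Whether ligands at this level were above background was not tested. The ligands not yet named, Wnt1, Wnt3, Wnt5b, Wnt8a and Wnt8b, had differences of 0.03, -0.03, -0.10, -0.11 and -0.07.

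Of 10 tested Frizzled and Lrp genes 8 had a difference below 0 (median -0.11) and 2, Fzd3 and Fzd6, lay above 0. The count below 0 was 8 of 10 under quantile normalization and median centring, 9 without pool 4 of Atgl KO/cTg and 7 without both outer arrays. No receptor passed the adjusted threshold.

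Fzd1, a Frizzled receptor, was the gene with the largest negative difference among the tested Wnt genes. It read 6.96, 7.09, 7.22 and 7.32 in the Atgl KO/cTg pools and 7.46, 7.33, 7.37 and 7.33 in the wt/cTg pools. Every Atgl KO/cTg pool was below every wt/cTg pool, and pool 4 of Atgl KO/cTg came close to the lowest wt/cTg pool. The means were 7.15 ± 0.16 against 7.37 ± 0.06 (SD, n = 4). The difference was -0.22 (95% interval -0.44 to 0.0007, limma adjusted p = 0.629), and the exact two-sided permutation test gave p = 0.0286, the smallest that 8 arrays allow. With 1 array left out the difference ran from -0.28 to -0.16, the latter without pool 1 of Atgl KO/cTg. The summed fibroblast marker level was lowest in pools 1 and 2 of Atgl KO/cTg, the pools in which Fzd1 was lowest. The same held for the summed levels of smooth muscle, endothelial and alveolar type 1 markers. Of these markers 8 of 11, 11 of 14 and 11 of 12 had a difference below 0, and none passed the threshold. The part of these cells in the value of Fzd1 was not tested.

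Lrp5, a co-receptor of Frizzled for Wnt, read 7.59, 7.48, 7.64 and 7.60 in the Atgl KO/cTg pools and 7.69, 7.84, 7.62 and 7.93 in the wt/cTg pools. Only pool 3 of Atgl KO/cTg reached into the wt/cTg range, and the difference was -0.19 (95% interval -0.40 to 0.02, limma adjusted p = 0.656). Lrp6, the other co-receptor, read 8.76, 8.88, 9.08 and 9.13 in the Atgl KO/cTg pools and 9.11, 9.25, 8.98 and 9.12 in the wt/cTg pools, with overlapping groups and a difference of -0.15 (95% interval -0.37 to 0.06, limma adjusted p = 0.761). A further probe set of Lrp6 gave -0.30, and the mean of its probe sets gave -0.23, with a limma adjusted p of 0.585.

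Fzd4, a receptor for Wnt and for norrin in blood vessels, read 8.72, 8.45, 8.57 and 8.68 in the Atgl KO/cTg pools and 8.77, 8.70, 8.50 and 8.91 in the wt/cTg pools. The groups overlapped, the highest pool was pool 4 of wt/cTg, and the difference was -0.11 (95% interval -0.34 to 0.11, limma adjusted p = 0.828). Fzd7, a receptor found in many stem cell compartments, read 6.59, 6.27, 6.55 and 6.55 in the Atgl KO/cTg pools and 6.72, 6.68, 6.41 and 6.59 in the wt/cTg pools, with a difference of -0.11 (95% interval -0.36 to 0.14, limma adjusted p = 0.859). Pool 2 of Atgl KO/cTg alone was low, and without it the difference was -0.04.

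Fzd6, a receptor of planar cell polarity, read 6.46, 6.63, 6.61 and 7.31 in the Atgl KO/cTg pools and 6.62, 6.67, 6.43 and 6.96 in the wt/cTg pools. Pool 4 of Atgl KO/cTg was well above every other Atgl KO/cTg pool, and the difference of 0.09 (95% interval -0.32 to 0.49, limma adjusted p = 0.947) turned to -0.10 without it. Fzd2, which lay below the filter, read 4.17, 4.32, 4.25 and 4.46 in the Atgl KO/cTg pools and 4.59, 4.10, 4.20 and 4.36 in the wt/cTg pools, with a difference of -0.02 (95% interval -0.30 to 0.27, limma adjusted p = 0.99 without the level filter). Its Atgl KO/cTg pools lay within the wt/cTg range. Fzd3, Fzd5, Fzd8 and Fzd9 had differences of 0.11, -0.10, -0.11 and -0.07, and Fzd10, below the filter, 0.03.

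**Figure D2:**
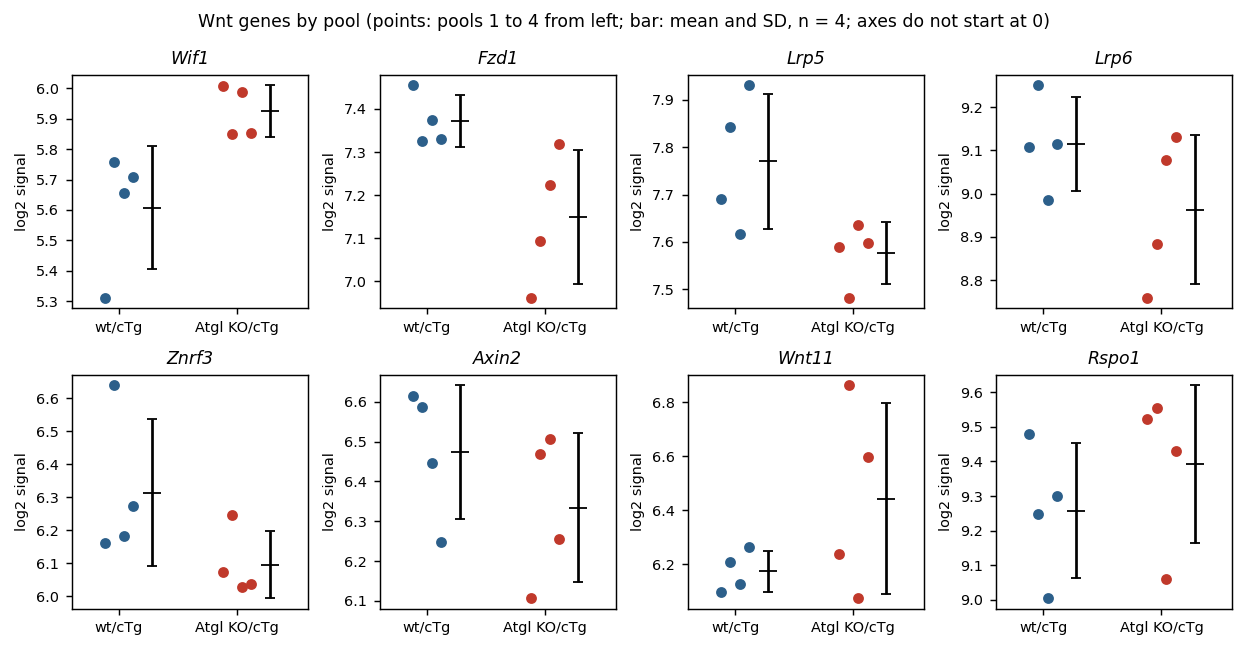
Log2 signal (vertical axes, which do not start at 0) of 8 Wnt genes in the 4 wt/cTg pools (blue) and the 4 Atgl KO/cTg pools (red), with pools 1 to 4 from left to right and the mean and SD (n = 4) beside them. The groups are apart for Wif1 and Fzd1 and overlap for Lrp5, Lrp6, Znrf3, Axin2, Wnt11 and Rspo1.

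Wif1, a secreted protein that binds Wnt and keeps it from its receptors, had the largest positive difference among the tested Wnt genes. It read 6.01, 5.85, 5.99 and 5.85 in the Atgl KO/cTg pools and 5.31, 5.76, 5.66 and 5.71 in the wt/cTg pools. All 4 Atgl KO/cTg pools were above all 4 wt/cTg pools, and pool 1 of wt/cTg was the lowest. The means were 5.93 ± 0.09 against 5.61 ± 0.20 (SD, n = 4). The difference was 0.32 (95% interval 0.05 to 0.59, limma adjusted p = 0.538), with an exact two-sided permutation p of 0.0286, the smallest possible. Its unadjusted limma p of 0.0252 became 0.0587 and 0.0598 without pool 1 or pool 3 of Atgl KO/cTg and 0.0772 without pool 1 of wt/cTg, where the difference was 0.29, 0.30 and 0.22. It was 0.33 with the sex-linked score as a covariate and 0.38 without both outer arrays. The mean signal of Wif1, 5.77, is not far above the level filter.

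The other secreted inhibitors showed no such separation. Sfrp1, a decoy that resembles the Wnt-binding part of Frizzled, read 7.58, 7.91, 7.52 and 7.75 in the Atgl KO/cTg pools and 7.75, 7.91, 7.28 and 7.64 in the wt/cTg pools. Its difference was 0.04 (95% interval -0.26 to 0.35, limma adjusted p = 0.969), and the Atgl KO/cTg pools lay within the wt/cTg range. Sfrp2 and Sfrp4, decoys of the same family, had differences of 0.09 and -0.13, with SDs between pools of 0.28 to 0.44. These signs turned with 1 pool left out, to -0.06 for Sfrp2 without pool 3 of wt/cTg and to 0.04 for Sfrp4 without pool 2 of wt/cTg. The sign of Sfrp1 turned in 5 of 19 alternatives. Sfrp5, below the filter, was at 0.02.

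Dkk3, a Dickkopf family protein whose action on Lrp5 and Lrp6 is unclear, read 6.86, 7.24, 6.66 and 7.40 in the Atgl KO/cTg pools and 7.12, 7.19, 6.69 and 7.36 in the wt/cTg pools. The order of the pools was the same in both groups, with pool 4 highest and pool 3 lowest, and the difference was -0.05 (95% interval -0.45 to 0.35, limma adjusted p = 0.975). Dkk2, which binds Lrp5 and Lrp6, lay below the filter and read 5.24, 5.44, 4.94 and 4.96 in the Atgl KO/cTg pools and 5.32, 4.97, 4.93 and 5.25 in the wt/cTg pools, with a difference of 0.03 (95% interval -0.30 to 0.35, limma adjusted p = 0.987 without the level filter). Dkk1 and Dkk4, below the filter as well, were at -0.02 and 0.12. All 3 had overlapping groups.

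Among the R-spondins, which strengthen Wnt signals, Rspo1 and Rspo3 were tested. Rspo1 read 9.52, 9.55, 9.06 and 9.43 in the Atgl KO/cTg pools and 9.48, 9.25, 9.01 and 9.30 in the wt/cTg pools. Pool 3 was the lowest pool in each group, and the difference was 0.13 (95% interval -0.14 to 0.41, limma adjusted p = 0.835), or 0.008 with the runs of mouse numbers in the labels as a block. Rspo3, an R-spondin of lung mesenchyme and vessels, read 5.42, 5.78, 5.37 and 5.63 in the Atgl KO/cTg pools and 6.15, 5.72, 5.21 and 5.45 in the wt/cTg pools. The wt/cTg pools held both the highest and the lowest value, and the difference of -0.08 (95% interval -0.50 to 0.33, limma adjusted p = 0.948) turned to 0.09 without pool 1 of wt/cTg. Rspo2 and Rspo4, below the filter, had differences of 0.02 and 0.03.

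Of the R-spondin receptors, Lgr5, a stem cell marker of the gut that also marks a set of lung mesenchymal cells, lay below the filter. It read 5.09, 5.14, 5.20 and 5.15 in the Atgl KO/cTg pools and 4.88, 5.10, 5.22 and 4.91 in the wt/cTg pools, with a difference of 0.12 (95% interval -0.13 to 0.36, limma adjusted p = 0.88 without the level filter). The Atgl KO/cTg pools were close together within the wt/cTg range, and the further probe set of Lgr5 gave 0.17. Lgr6, known in the lung from airway smooth muscle, read 6.78, 7.37, 6.88 and 6.92 in the Atgl KO/cTg pools and 7.36, 7.56, 6.94 and 6.55 in the wt/cTg pools. Its difference was -0.12 (95% interval -0.58 to 0.34, limma adjusted p = 0.936), with the widest interval of the tested Wnt genes, and became -0.43 without both outer arrays (limma adjusted p = 0.829). Lgr4, the broadly expressed receptor of the family, was at 0.08, and at -0.000 without pool 4 of Atgl KO/cTg.

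Of Axin1, Axin2, Rnf43 and Znrf3, 3 had a difference below 0 and Rnf43 lay above 0, and none passed. Axin2, the feedback gene most used as a reporter of beta-catenin activity, read 6.11, 6.47, 6.51 and 6.26 in the Atgl KO/cTg pools and 6.61, 6.59, 6.45 and 6.25 in the wt/cTg pools. The groups overlapped over most of their range, and the difference was -0.14 (95% interval -0.42 to 0.14, limma adjusted p = 0.835). A further probe set of Axin2 gave 0.06, of the opposite sign, and the mean of both gave -0.04. With 1 array left out the difference ran from -0.21 to -0.06, the latter without pool 1 of Atgl KO/cTg, and it was -0.26 without both outer arrays (limma adjusted p = 0.946). Its relative Axin1, the constant part of the degradation complex, was at -0.06.

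Znrf3, a ligase that takes Frizzled off the surface, read 6.07, 6.25, 6.03 and 6.04 in the Atgl KO/cTg pools and 6.16, 6.64, 6.18 and 6.27 in the wt/cTg pools. Of the Atgl KO/cTg pools 3 lay below the wt/cTg range, and pool 2 of wt/cTg was high. The difference was -0.22 (95% interval -0.50 to 0.06, limma adjusted p = 0.722) and became -0.11 without pool 2 of wt/cTg. Rnf43, the related ligase, read 6.56, 6.33, 6.14 and 6.40 in the Atgl KO/cTg pools and 6.25, 6.20, 6.21 and 6.29 in the wt/cTg pools, with a difference of 0.12 (95% interval -0.12 to 0.37, limma adjusted p = 0.833) in the other direction. It was 0.05 without pool 1 of Atgl KO/cTg, the highest pool. Neither ligase passed the threshold.

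Pools of 1 genotype differed from each other across the tested Wnt genes. Among the wt/cTg pools number 3 was the lowest in 15 of 30 Wnt genes (30.3% of all genes) and the highest in 1 (18% of all genes). In the same group number 2 was the highest in 14 (20.9% of all genes). Among the Atgl KO/cTg pools number 3 was the lowest in 14 of 30 (22.5% of all genes) and number 4 the highest in 13 (36.1% of all genes). Number 1 was the lowest in 9 of 30, where it was the lowest in 39.3% of all genes. These counts were made after the values were seen.

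**Figure D3:**
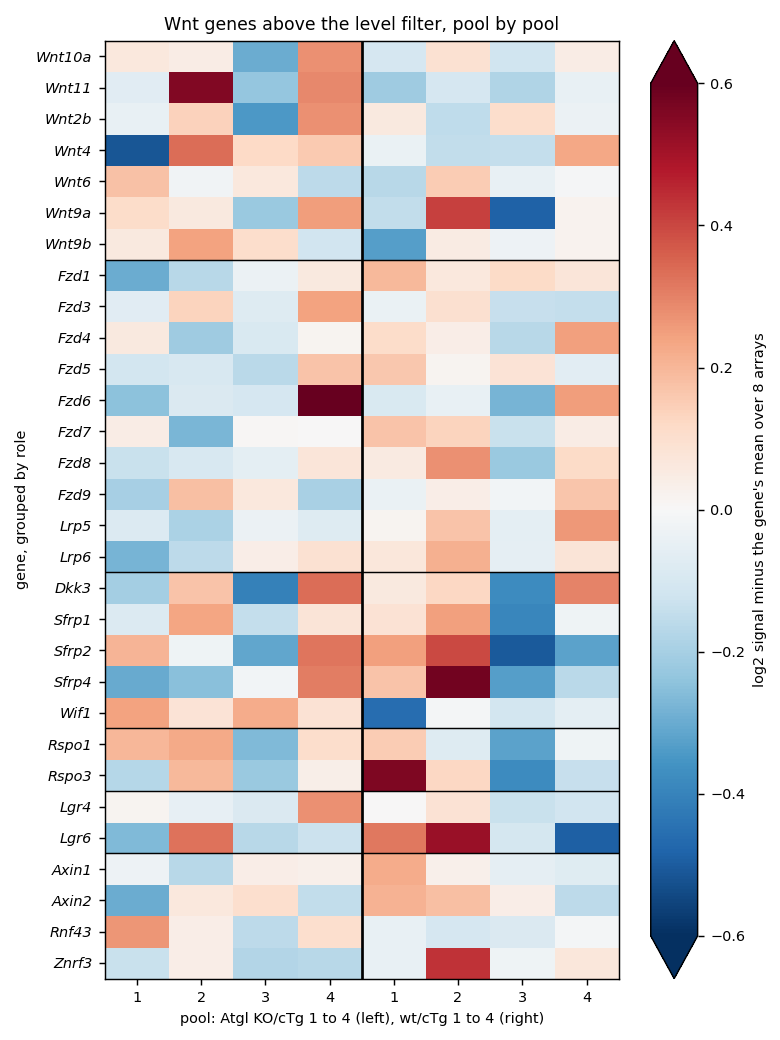
Log2 signal of the 30 tested Wnt genes (rows, grouped by role) in each pool (columns), minus the gene's mean over 8 arrays, with red above and blue below that mean. Colours vary among pools of the same genotype, as in the blue cells of pool 3 for Dkk3, Sfrp2 and Rspo1 on both sides of the line between the genotypes.

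Other genes of the pathway were taken from a list of 109 genes in 8 sublists, of which 105 had a probe set and 91 were tested. None passed the adjusted threshold in limma. At an unadjusted p under 0.05 there were 10 of 91, with 5 higher (3.39% of all genes) and 5 lower (4.56% of all genes) in Atgl KO/cTg. Groups did not overlap for 1 higher and 3 lower genes (1.74% and 2.62% of all genes). Of the 91 differences 44 lay above 0 and 47 below (median -0.004). The 10 genes were Porcn, Ppp2ca, Celsr1, Cd44 and Jag1 above 0 and Nkd1, Reck, Siah1a, Wls and Bambi below. The count was 5 without pool 2 or pool 4 of Atgl KO/cTg and 6 without pool 3 or pool 4 of wt/cTg.

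Nkd1, a Dishevelled-binding inhibitor that is itself switched on by Wnt signals, had the largest difference and the smallest p of the list. It read 6.31, 6.55, 6.41 and 6.82 in the Atgl KO/cTg pools and 6.96, 7.13, 7.00 and 7.25 in the wt/cTg pools. Every Atgl KO/cTg pool was below every wt/cTg pool, and the difference was -0.57 (95% interval -0.85 to -0.28, limma adjusted p = 0.257). Its unadjusted limma p was 0.000998 and the exact permutation p 0.0286, and over 19 alternatives the difference ran from -0.66 to -0.50 with a limma adjusted p of 0.117 to 0.632. Whether Nkd1 and Axin2 differed in their response was not tested.

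Reck, a membrane protein that helps Wnt7a and Wnt7b signal through Frizzled, read 7.78, 7.83, 8.02 and 7.89 in the Atgl KO/cTg pools and 8.13, 8.12, 8.22 and 8.26 in the wt/cTg pools. The groups did not overlap and the difference was -0.31 (95% interval -0.49 to -0.12, limma adjusted p = 0.398). Siah1a, an E3 ligase that can degrade beta-catenin, read 9.40, 8.81, 9.20 and 9.42 in the Atgl KO/cTg pools and 9.51, 9.77, 9.53 and 9.76 in the wt/cTg pools, also without overlap, with a difference of -0.43 (95% interval -0.72 to -0.15, limma adjusted p = 0.436). It was -0.30 without pool 2 of Atgl KO/cTg and -0.26 without both outer arrays (limma adjusted p = 0.834). Near-identical copies of Siah1a exist in the mouse genome, so its probes may read more than 1 gene. The summed fibroblast marker level was 13.59 to 13.94 in Atgl KO/cTg against 13.84 to 14.24. Marker levels of alveolar type 2 cells and heart muscle were further apart and did not overlap. They were 14.48 to 14.66 against 14.80 to 15.23 for 14 alveolar type 2 markers. For 7 heart muscle markers they were 9.93 to 10.18 against 10.58 to 10.84, and 6 lay below 0. Of these 2 passed, where 0.0839% of all genes were lower and passed. Other summed levels were higher on average in Atgl KO/cTg. Those of 10 macrophage markers (6 above 0) did not overlap, at 13.22 to 13.61 against 13.15 to 13.20. Goblet markers (9 of 9 above 0) read 12.49 to 13.52 against 11.40 to 12.64. Neutrophil markers (6 of 6 above 0) read 11.22 to 12.27 against 11.16 to 11.62. Ciliated cell markers (12 of 12 above 0) read 12.93 to 13.28 against 12.47 to 13.15. Summed levels of club, mesothelial and B cell markers were also higher on average and overlapped. The part of these cells in the values of Nkd1, Reck and Siah1a, or of Wnt and pathway genes higher in Atgl KO/cTg, was not tested.

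Of the secretion genes, Porcn and Wls had differences of opposite sign. Porcn, the enzyme that attaches the lipid to Wnt, read 8.67, 8.79, 8.65 and 8.83 in the Atgl KO/cTg pools and 8.43, 8.63, 8.41 and 8.59 in the wt/cTg pools. Its groups did not overlap, with a difference of 0.22 (95% interval 0.03 to 0.41, limma adjusted p = 0.546). Wls, the carrier that brings Wnt to the surface, read 8.72, 8.61, 8.60 and 8.90 in the Atgl KO/cTg pools and 9.05, 8.99, 8.86 and 8.96 in the wt/cTg pools. Only pool 4 of Atgl KO/cTg reached the wt/cTg range, and the difference was -0.26 (95% interval -0.45 to -0.06, limma adjusted p = 0.496). Of the 7 tested genes of Wnt secretion and removal 1 lay above 0, Porcn, and 6 below.

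Of the other sublists, planar polarity genes had 8 of 10 above 0 (median 0.07), led by Celsr1 at 0.49 (limma adjusted p = 0.524) and Celsr2 at 0.22 (limma adjusted p = 0.728). Without both outer arrays Celsr1 was at 0.25 (limma adjusted p = 0.948). Celsr3, below the filter, had Atgl KO/cTg pools that were all higher, with a difference of 0.32. The nuclear factors had 10 of 17 above 0 (median 0.004), with Bcl9, a co-activator of beta-catenin, at 0.16 and Tle3, a co-repressor, at 0.12. Tle3 turned to -0.03 without both outer arrays. Ctnnb1, which encodes beta-catenin, read 9.74 ± 0.06 and 9.69 ± 0.06 (SD, n = 4), with a difference of 0.05 (95% interval -0.10 to 0.19, limma adjusted p = 0.904).

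In the destruction complex list 5 of 13 lay above 0 (median -0.007), with Ppp2ca, a phosphatase subunit, at 0.25, or 0.096 without both outer arrays. Co-receptors and other receptors had 5 of 13 above 0 (median -0.05), with Kremen1, a receptor for Dkk proteins, at 0.23. Cytoplasmic transducers had 8 of 14 above 0 (median 0.03), with Frat2, a binder of the kinase GSK3, at 0.24. Other extracellular inhibitors had 2 of 6 above 0 (median -0.08), with Sostdc1 at 0.48 and Igfbp4 at -0.20. Common targets had 5 of 11 above 0 (median -0.008), with Cd44 at 0.20, Jag1 at 0.23, Ccnd1 at 0.15, Myc at -0.008 and Bambi at -0.29. None of these genes passed the adjusted threshold, and Jag1, Celsr3, Ctnnb1, Ccnd1 and Myc are named outside the rule for named genes, after their values were seen.

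**Figure D4:**
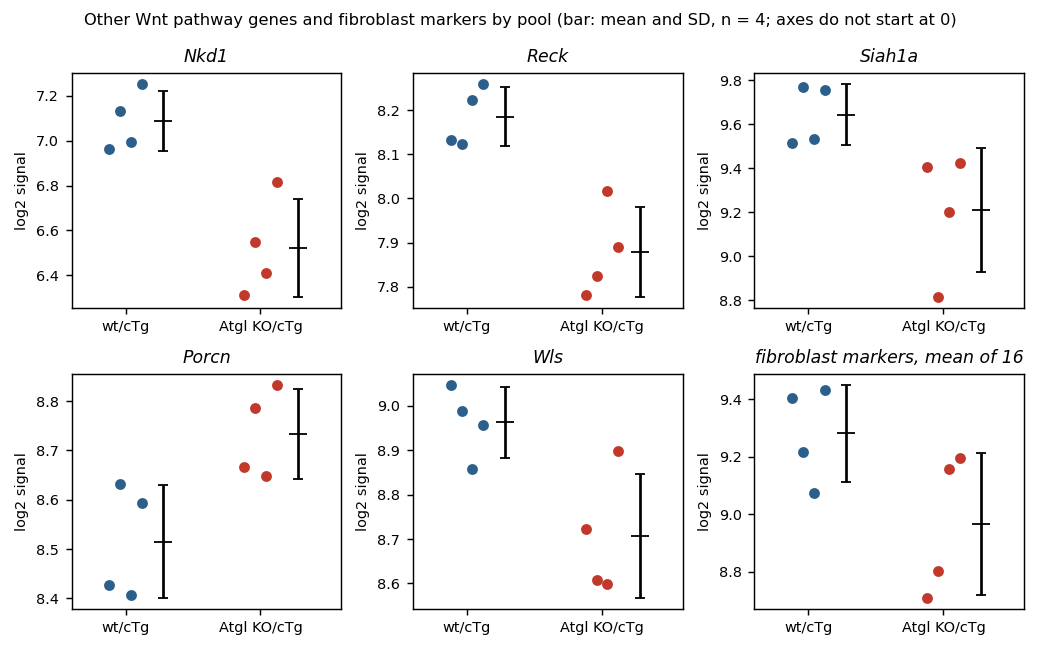
Log2 signal (vertical axes, which do not start at 0) of Nkd1, Reck, Siah1a, Porcn and Wls, and the mean log2 signal of 16 fibroblast markers, in the 4 wt/cTg pools (blue) and the 4 Atgl KO/cTg pools (red), with the mean and SD (n = 4) beside them. The groups are apart for Nkd1, Reck, Siah1a and Porcn, overlap for Wls, and overlap for the fibroblast markers.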

How the data were processed

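Total RNA was purified on miRNeasy Micro columns with DNase, then 50 ng was amplified (NuGEN Ovation Pico WTA) and biotin-labelled, per the labels' protocols. The deposited table holds log2 signals for each probe set on each array, as read from the values (1.85 to 13.54, array medians 5.12 to 5.24). Which software, background correction and normalization made them was not given in the sources used here. Detection values, scan dates and slides were not used, so background and batches were not tested, and the number of arrays limits the precision. Each array had its own mice, per the labels. Signals of different probe sets are not compared.

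Of 41345 probe sets 23521 had 1 symbol in the platform annotation, 1814 several and 16010 none. For each of 22180 genes the single-symbol probe set with the highest mean was kept, and genes with a mean above 5.18 were tested. The 2 genotypes were tested with limma 3.58.1 in R 4.3.3 (eBayes with a variance trend, two-sided, Benjamini-Hochberg over 13112 genes, threshold 0.05), with each difference in log2 units, wt/cTg subtracted from Atgl KO/cTg. Genes below the filter take the fit over all 22180 genes. Single genes also had an exact permutation test over 70 arrangements. The sex-linked score was Xist minus the mean of Uty, Kdm5d and Eif2s3y, and Ddx3y, which was planned for it, was not used here. The fit was tested on simulated data. Figures were drawn with matplotlib 3.10.9.

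The members and lists were chosen with earlier results of these data known. The rule for named genes took the 12 Wnt genes with the smallest p, a fixed set of 24 Wnt genes that partly overlaps them, Pnpla2, and the 2 pathway genes with the smallest p in each sublist. No 2 arrays were identical (pairwise r of 0.965 to 0.985). Alternatives covered the level filter, variance trend, normalization, array weights, probe sets, covariates, mouse numbers and each array left out.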

Additional observations from a re-analysis of the deposited data

Results flagged for a closer look

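Of 136 groups of 4 values examined for 1 distant pool, 3 had a gap above Dixon's 95% critical value, where chance flags about 1 in 20. Fzd7 read 6.27 in pool 2 of Atgl KO/cTg and 6.55 to 6.59 in the other Atgl KO/cTg pools. Igfbp4 read 9.04 in pool 3 of wt/cTg and 9.37 to 9.42 in the other wt/cTg pools. Frat2 read 5.66 in pool 1 of Atgl KO/cTg and 5.18 to 5.26 in the other Atgl KO/cTg pools.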

How the results depend on the processing

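No tested Wnt gene and no gene of the pathway list passed the adjusted threshold in limma under any of the 19 alternatives, and the lowest adjusted p of a Wnt gene was 0.45 (Fzd1 without pool 4 of Atgl KO/cTg). The count of Wnt genes past an unadjusted p of 0.05 was 1 higher and 0 lower. The higher count was 0 with a mean above 6, which leaves out Wif1, and 0 to 2 when each array was left out. It was 0 without pool 1 of either genotype, and 2 without pool 3 of Atgl KO/cTg (Wnt11 and Rspo1, not Wif1). The lower count was 1 with a mean above 6, without a variance trend and after quantile normalization (Fzd1), 2 with the mean of probe sets (Fzd1 and Lrp6), 1 without both outer arrays (Lgr6), and 0 to 1 when each array was left out (1 without pool 4 of Atgl KO/cTg, Fzd1, and 1 without pool 3 of wt/cTg, Lrp5). Without a level filter 24 of 51 lay above 0 and 27 below, and with a mean above 6, 9 of 22 lay above. When each array was left out 11 to 16 of 30 lay above 0 and 14 to 19 below, and the median ran from -0.083 to 0.021.

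All genes past the threshold numbered 13, but 7 without a filter or with age, 1 without a variance trend or after quantile normalization, 23 with array weights, 3 with runs of mouse numbers as a block, 8 without both outer arrays and 1 to 25 when each array was left out. With 1 Atgl KO/cTg pool left out it was 1, 18, 2 and 2 for pools 1, 2, 3 and 4, and with 1 wt/cTg pool left out it was 25, 1, 2 and 1. The pathway count of 10 was 6 after median centring, 5 without both outer arrays and 5 to 10 when each array was left out. Apart from smaller sets of genes or arrays, the cause was not tested. The labels give no replicate numbers, so the block by runs of mouse numbers, which pools of both genotypes share in part, was the one matched fit: no Wnt gene passed and 12 of 30 lay above 0 (median -0.088).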

Other observations

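In 8 of the 30 tested Wnt genes (26.7%) pool 3 was the lowest pool of both genotypes, where this held for 7.6% of all genes tested: Dkk3, Lgr4, Rspo1, Rspo3, Sfrp1, Sfrp2, Wnt10a and Wnt9a. The pool numbers pair nothing, and these pools were singled out after their values were seen. Of 5 tested markers of mesothelium, the lining of the lung surface (Msln, Upk3b, Wt1, Krt19 and Lrrn4), 4 were lowest in the same pools. Their summed level was 12.11 in pool 3 of Atgl KO/cTg and 12.46 to 12.62 in the other Atgl KO/cTg pools, while pool 3 of wt/cTg had 12.10 against 12.33 to 12.48. Of 16 fibroblast markers 9 were lowest in pool 3 of wt/cTg, 0 in pool 3 of Atgl KO/cTg and so 0 in both. Markers of the other cell types were not counted in this way. The part of mesothelial or fibroblast cells in the values of these Wnt genes was not tested.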
